A study of Homo sapiens with 59 samples.

Results

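The 8 genes described here, ACAT2, HMGCS1, MVK, PMVK, MVD, IDI1, FDPS and GGPS1, encode enzymes that carry acetyl-CoA through mevalonate to the isoprenoid diphosphates. They were taken by name from 34622 genes listed over 7 tables of normalised counts, and the mean of all 8 reached the minimum of 10 normalised counts in every table, so all were tested everywhere. The samples were cells of Jurkat, an established line from a human T cell leukaemia, collected at day 3 of culture and measured by bulk RNA-seq. Each of the 7 restricted groups (5 libraries each) was grown with 25% of 1 essential amino acid, namely histidine, methionine, phenylalanine, tryptophan, isoleucine, leucine or valine. The histidine, methionine, phenylalanine and tryptophan groups each had their own control group of 5 libraries, while 4 branched-chain control libraries served isoleucine, leucine and valine together. All 59 libraries came from the same line at the same day, and the labels name no genetic change, no second agent and no separate cultures behind the libraries of a group. The p-values below therefore measure only how far these libraries vary, and that variation may be technical.

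In the mevalonate pathway, acetyl-CoA units are condensed and reduced to mevalonate, which is phosphorylated and decarboxylated to isopentenyl diphosphate, a building block that is then joined into longer isoprenoid diphosphates. Farnesyl diphosphate is the branch point: squalene and cholesterol are made from it, and so are the lipid tails that anchor Ras family proteins to membranes, dolichol for protein glycosylation and the tail of ubiquinone. Proliferating T cells draw on the pathway for membrane sterol, and many of its genes are classical targets of the transcription factor SREBP-2, which is released from the endoplasmic reticulum when membrane cholesterol is low.

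Most of the 8 mRNAs fell: those of ACAT2, HMGCS1, MVK, MVD, IDI1 and FDPS were lower in 3 to 6 of the 7 restrictions and higher in none, whereas PMVK rose under histidine and methionine restriction and GGPS1 rose in those 2 and was called lower under tryptophan restriction, a call that other scalings ended. Of 56 tests (8 genes in 7 comparisons), 31 were called lower, 4 higher and 21 neither, by limma on log2(normalised count + 1) with Benjamini-Hochberg adjustment over all genes of a table and a threshold of 0.05. Methionine restriction gave the lowest restricted-to-control ratio of each of those 6 mRNAs among the 7 comparisons. HMGCS1 had there 685 ± 58.5 (SD, n = 5) against 6829 ± 609 (SD, n = 5) normalised counts, 9.95-fold lower, and ACAT2 was 6.97-fold lower. In isoleucine restriction HMGCS1 had 1803 ± 109.9 (SD, n = 5) against 1647 ± 136 (SD, n = 4) normalised counts. The count of 2 of 8 higher, PMVK and GGPS1, is near the 27.8% of all tested genes called higher in methionine and the 15.6% in histidine restriction.

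Read by comparison, methionine restriction lowered 6 members and raised 2, where 25.4% of 16889 tested genes were called lower and 27.8% higher. Histidine restriction also lowered 6 and raised 2, against 12.3% and 15.6% of 17740 genes. In both, the 2 of 8 called higher are near the share of all tested genes so called. Tryptophan restriction lowered 7 of 8, against 27.7% lower of 16630 genes and 23.6% higher. Leucine restriction lowered 5, where 4.33% of genes were called lower and 3.41% higher. Phenylalanine restriction lowered 4, against 6.09% lower and 4.11% higher. Valine restriction lowered 3, against 7.36% lower and 5.13% higher. In isoleucine restriction limma called 0% of 16623 genes in either direction, 0 of the 8 members were called and 0 had an unadjusted p below 0.05. There, 5.25% of all tested genes had an unadjusted p below 0.05.

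The median log2 difference of the 8 members was -2.05 in methionine, -1.43 in histidine, -0.78 in tryptophan, -0.61 in leucine, -0.50 in phenylalanine, -0.40 in valine and -0.06 in isoleucine restriction. The median of all tested genes lay between -0.01 and 0.03. Of the 31 lower calls 29 had libraries that did not overlap, as had all 4 higher calls. Groups that did not overlap, restricted below control, made up 19% of all tested genes in methionine, 8.2% in histidine, 21.9% in tryptophan, 6.81% in leucine, 6.1% in phenylalanine and 9.13% in valine restriction. Restricted above control, they made up 20.9% in methionine, 12% in histidine, 15.6% in tryptophan, 6.32% in leucine, 5.55% in phenylalanine and 6.28% in valine restriction. In isoleucine restriction the shares were 0.818% below and 1.19% above.

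**Figure D1:**
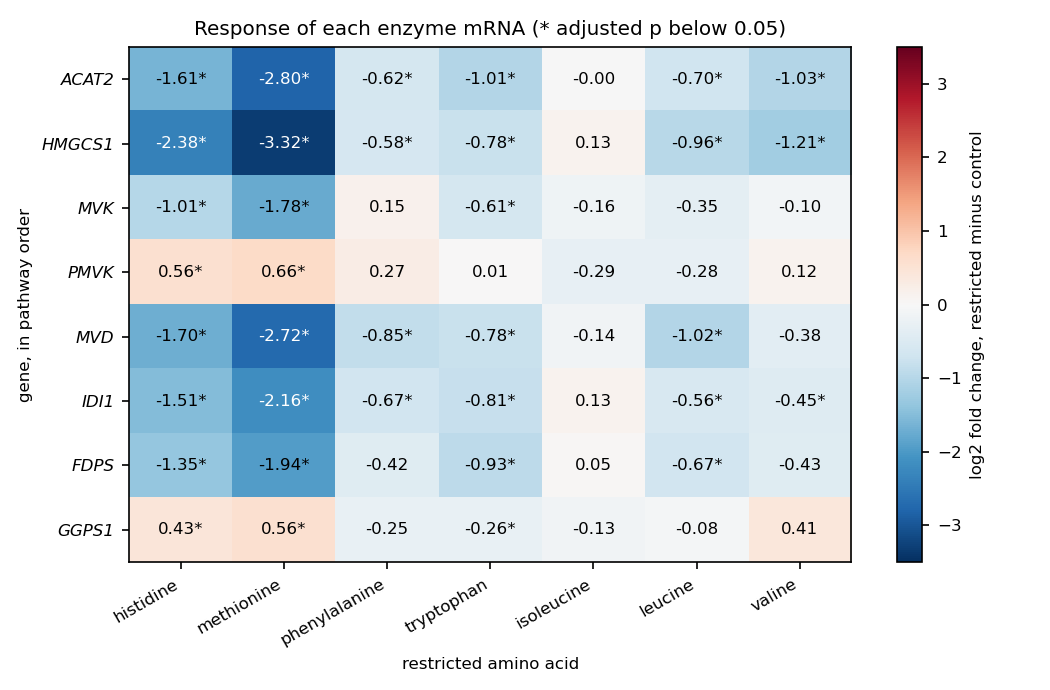
Heat map of log2 differences (restricted minus control, blue lower and red higher) of the 8 mRNAs, in pathway order, in the 7 comparisons, with an asterisk where adjusted p is below 0.05. HMGCS1 runs from -3.32 in methionine to 0.13 in isoleucine restriction, and PMVK and GGPS1 lie above 0 in methionine and histidine restriction.

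The normalised counts of a library added up to 14.9 to 20.5 M, and the number of reads behind them is unknown, so no counting interval is given. All 9 T cell markers examined, among them CD3E and LCK, were above 0 in every library, the lowest value being 8.58 normalised counts of CD28. Fibroblast collagen mRNA stood out in 4 libraries: COL1A2 was at 1736 in histidine control 3, 564 in phenylalanine control 1, 207 in valine restricted 5 and 140 in branched-chain control 4 (isoleucine table), against at most 19.0 in the other 55. The summed level of COL1A1, COL1A2 and DCN was 134 to 401 in those 55 libraries and 736 to 6446 in the 4. Ribosomal protein mRNA stood out in 3 libraries, phenylalanine restricted 2, phenylalanine control 1 and branched-chain control 1, where the median of 77 such mRNAs lay at least 0.83 log2 units above the rest of the group, against at most 0.48 elsewhere. Of the other markers examined, CD14, LYZ, HBB and HBA1 were at 0 in some libraries and at most at 40.0, and CD79A was at 202 to 817. Epithelial mRNA was highest in phenylalanine control 1, with KRT8 at 475 and EPCAM at 199.6 against table medians of 49.3 and 0, and where KRT18 was also at its highest, and in histidine control 3, with KRT8 at 452 and KRT18 at 241 against medians of 39.4 and 55.2. These are 2 of the 4 libraries high in COL1A2. The part of these libraries in the members' results was not tested beyond leaving them out. Without the libraries high in COL1A2 the members called were 6 lower and 2 higher in histidine, 4 lower in phenylalanine, 5 lower in leucine and 2 lower in valine restriction. Without those high in ribosomal protein mRNA they were 5 lower and 1 higher in phenylalanine, 5 lower in leucine and 2 lower and 1 higher in valine restriction. In bulk RNA, fewer cells of one kind and less RNA per cell cannot be told apart.

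**Figure D2:**
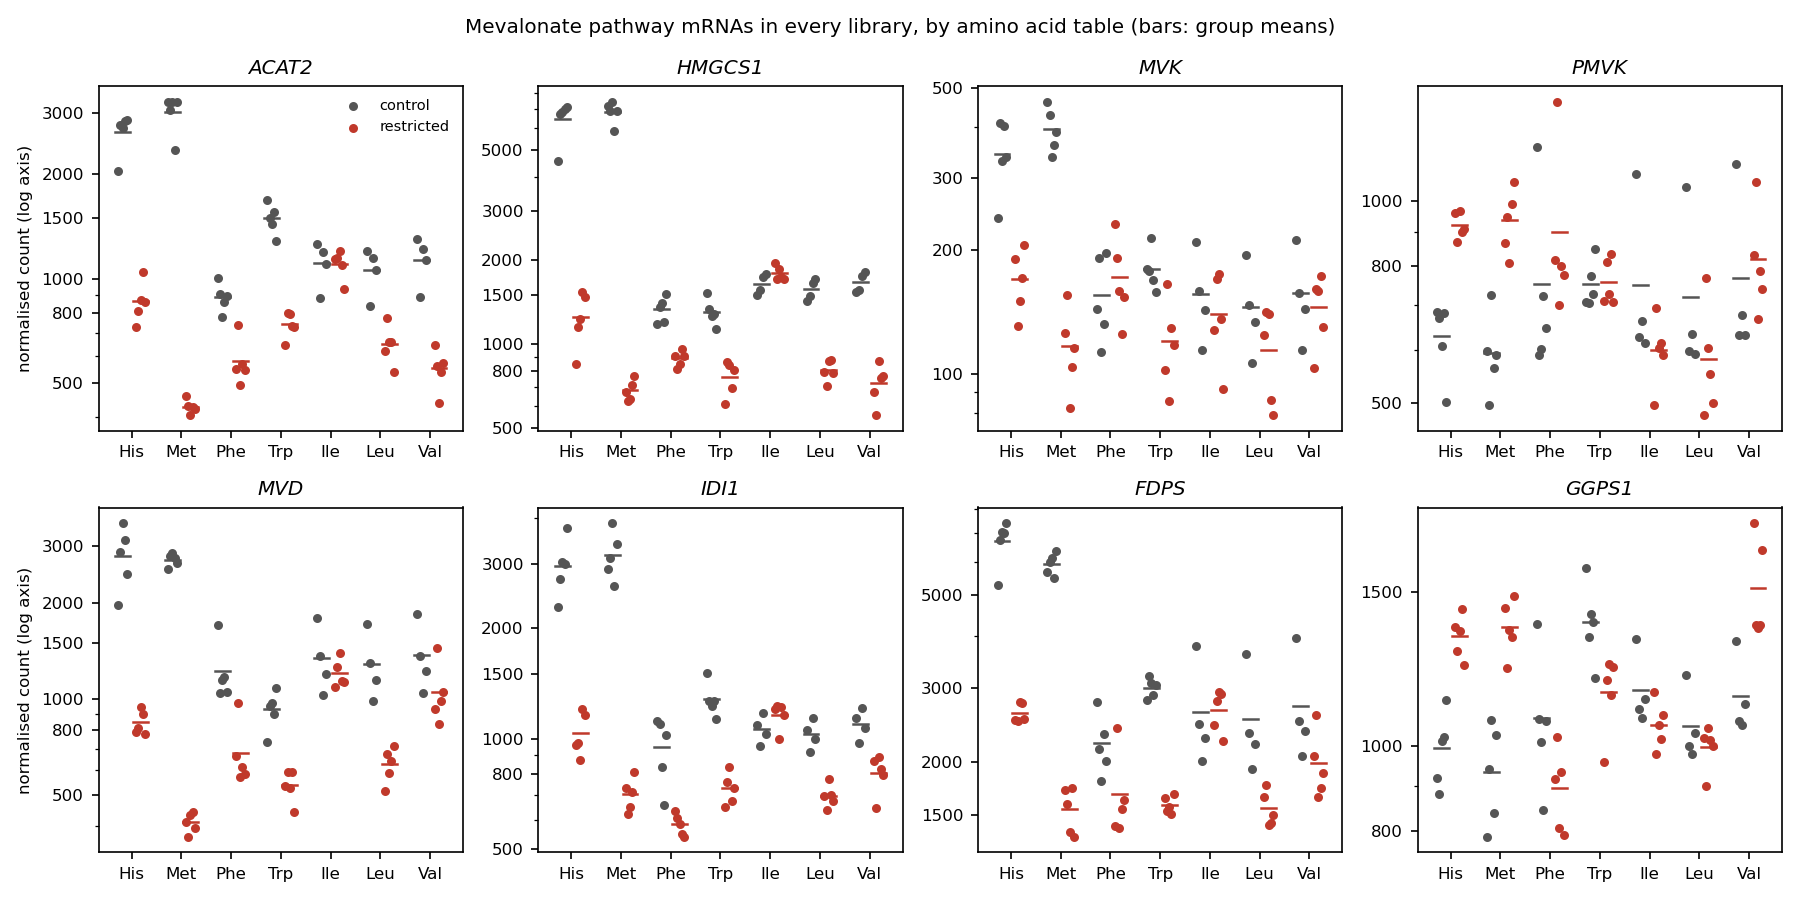
Normalised counts of the 8 mRNAs (log axis) in each library, by amino acid table, with control libraries in grey, restricted libraries in red and a bar at each group mean. Control values of ACAT2, HMGCS1, MVK, MVD, IDI1 and FDPS sit higher in the histidine and methionine tables than in the other 5, while for HMGCS1 restricted means run over a 2.63-fold range against 5.21-fold for control means.

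Sequences upstream of start sites are shown for 4 members whose mRNA fell and for GGPS1, whose mRNA rose in 2 comparisons. Both HMGCS1 windows, the second of 3 for IDI1 and the first of 3 for GGPS1 are printed, and since windows of a gene differ in their boxes these are examples, not a contrast between members. RefSeq promoter windows of 300 bases (250 before and 50 after a start site, GRCh38.p14) were found for 7 of the 8 members, 12 windows in all, and only stretches outside annotated exons are printed. Capitals mark CCAAT or its reverse complement ATTGG, the box bound by the factor NF-Y, which cooperates with SREBP at sterol-responsive promoters. All stretches run 5′ to 3′ on the gene's own strand, and the FDPS stretch ends inside a further box.
HMGCS1 (chr5:43313225-43313355, minus strand): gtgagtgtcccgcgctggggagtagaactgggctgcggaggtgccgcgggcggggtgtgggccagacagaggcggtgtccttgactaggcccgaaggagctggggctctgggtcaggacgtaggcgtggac
HMGCS1 (chr5:43313513-43313662, minus strand): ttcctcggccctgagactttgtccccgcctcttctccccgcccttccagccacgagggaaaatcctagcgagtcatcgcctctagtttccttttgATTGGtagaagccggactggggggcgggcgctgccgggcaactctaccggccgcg
MVD (chr16:88663162-88663297, minus strand): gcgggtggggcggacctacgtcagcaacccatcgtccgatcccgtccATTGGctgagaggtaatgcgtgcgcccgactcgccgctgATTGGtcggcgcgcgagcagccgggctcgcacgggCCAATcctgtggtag
IDI1 (chr10:1049171-1049369, minus strand): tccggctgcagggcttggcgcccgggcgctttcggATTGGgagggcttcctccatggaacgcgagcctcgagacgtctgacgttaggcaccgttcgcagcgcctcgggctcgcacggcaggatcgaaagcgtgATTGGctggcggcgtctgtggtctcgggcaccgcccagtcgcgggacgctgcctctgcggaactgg
FDPS (chr1:155308616-155308747, plus strand): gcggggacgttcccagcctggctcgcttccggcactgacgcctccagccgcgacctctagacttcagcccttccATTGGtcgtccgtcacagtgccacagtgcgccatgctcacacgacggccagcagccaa
GGPS1 (chr1:235326969-235327159, plus strand): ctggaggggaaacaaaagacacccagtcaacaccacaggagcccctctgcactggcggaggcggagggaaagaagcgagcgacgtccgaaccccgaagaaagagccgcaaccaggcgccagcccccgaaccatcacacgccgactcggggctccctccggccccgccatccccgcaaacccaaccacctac
The whole window held 5 CCAAT boxes for MVK, 3 for MVD and 3 for FDPS. The HMGCS1 windows held 0 and 2. The IDI1 windows held 3, 2 and 0, where 2 of the 3 in the first overlap, and PMVK held 0. The GGPS1 windows held 0, 1 and 0. Over all 35116 windows of that length in the RefSeq table, 34.6% held at least 1 and 10.8% held 2 or more CCAAT boxes on either strand. CACCCCAC, a sterol regulatory element core (2.79% of all windows), and the E-box CACGTG (7.26%) were not found in any of the 12 windows on either strand. Nor was TCACNCCAC (1.13%), a form of that core with a free base but a further T at its start. Other forms of the element were not searched for. GGGCGG, the GC box (45% of all windows), was found in 11 of them. These matches are descriptions of the letters in a window, not of bound sites.

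**Figure D3:**
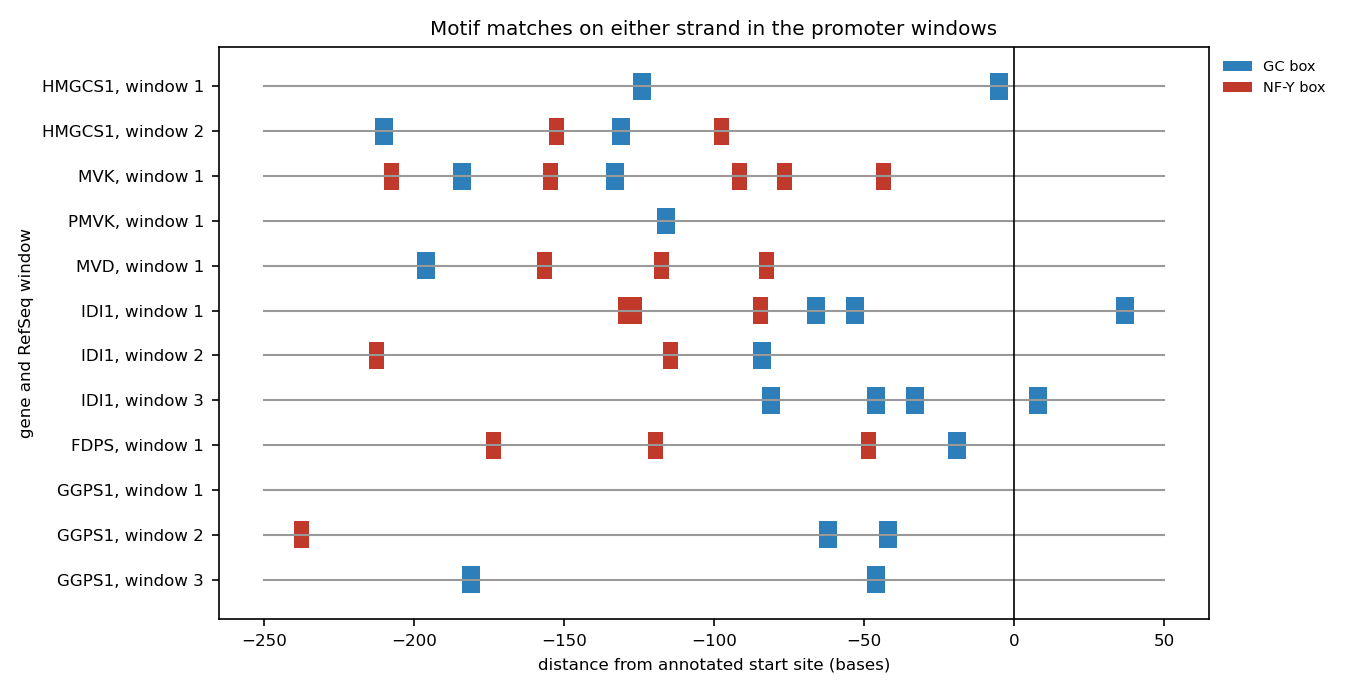
Positions of CCAAT (NF-Y box, red) and GGGCGG (GC box, blue) matches on either strand in the 12 promoter windows, by distance from the start site in bases, 1 line per window. MVK, MVD, FDPS, the first and second IDI1 windows and the second HMGCS1 window carry 2 to 5 CCAAT boxes. The PMVK window, the first HMGCS1 window, the third IDI1 window and all GGPS1 windows but the second carry none.

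The first enzymes make the substrate of the pathway. ACAT2 (chromosome 6, 159760328 to 159779055, plus strand, GENCODE 29 on GRCh38), the cytosolic thiolase that joins 2 acetyl-CoA, had 459, 431, 405, 428 and 423 normalised counts in the methionine-restricted libraries and 3219, 3049, 3225, 2349.6 and 3232 in their controls. The groups were far apart, with a log2 difference of -2.80 (SE 0.09, adjusted p = 3.01e-11). Under histidine restriction it had 863 ± 119 (SD, n = 5) against 2644 ± 343 (SD, n = 5), a log2 difference of -1.61 (SE 0.11, adjusted p = 3.04e-07). It was also called lower in tryptophan, -1.01 (SE 0.08, adjusted p = 1.74e-07), valine, -1.03 (SE 0.15, adjusted p = 0.00104), leucine, -0.70 (SE 0.13, adjusted p = 0.00981), and phenylalanine restriction, -0.62 (SE 0.12, adjusted p = 0.00664). In every one of those 6 comparisons all restricted libraries lay below all controls. In isoleucine restriction ACAT2 had 1103 ± 102 (SD, n = 5) against 1109.7 ± 166 (SD, n = 4) and the libraries overlapped. ACAT1, the mitochondrial thiolase of ketone body metabolism, was called lower only in methionine, -1.35 (adjusted p = 5.1e-07), and tryptophan restriction, -0.46 (adjusted p = 0.000989). The 3′ end of ACAT2 overlaps TCP1 on the other strand over 558 bases, and TCP1, a chaperonin subunit, differed by -0.24 (adjusted p = 0.0478) in methionine, -0.74 (adjusted p = 2.06e-07) in tryptophan, -0.54 (adjusted p = 0.0108) in valine and -0.07 (adjusted p = 0.434) in histidine restriction. At the other end ACAT2 overlaps SOD2, mitochondrial superoxide dismutase, over 2202 bases and SOD2-OT1 over 2005 bases, both on the other strand. SOD2 was called lower in methionine, -1.22 (adjusted p = 2.37e-06), and tryptophan restriction, -0.53 (adjusted p = 0.00651), and SOD2-OT1 in methionine, -3.70 (adjusted p = 3.85e-05), and histidine restriction, -1.92 (adjusted p = 0.00297). The sources used here do not give the strand setting of the authors' counting, so reads of these overlaps are uncertain, and the part of these neighbours in the ACAT2 values was not tested.

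HMGCS1 (chromosome 5, 43289395 to 43313512, minus strand), cytosolic HMG-CoA synthase, adds the next acetyl unit. Its values under methionine restriction were 677, 627, 637, 713 and 769.8, against 7157, 6854, 7432, 5825 and 6879 in the controls. The log2 difference was -3.32 (SE 0.08, adjusted p = 2.06e-12), the lowest of the 56. Under histidine restriction it had 849, 1150.3, 1231, 1539 and 1480.2 against 4549, 6712, 6851, 6991 and 7106, and again every restricted library lay below every control. That difference was -2.38 (SE 0.16, adjusted p = 2.16e-07), with histidine control 1 far below the other histidine controls. Valine restriction left 673, 557, 875, 756 and 773 against 1539.8, 1568, 1763 and 1818, a log2 difference of -1.21 (SE 0.14, adjusted p = 0.000199). Leucine restriction left 796, 707, 872, 879 and 791 against 1431, 1491, 1663 and 1713, -0.96 (SE 0.10, adjusted p = 0.000207). The same 4 control libraries, scaled separately in each table, served both. HMGCS1 was also lower in tryptophan, -0.78 (SE 0.10, adjusted p = 2.08e-05), and phenylalanine restriction, -0.58 (SE 0.10, adjusted p = 0.00308), with no overlap in either. In the isoleucine table the restricted libraries had 1966, 1719, 1867, 1740.0 and 1721 and the controls 1498, 1567, 1741 and 1782, which overlap, and the difference was 0.13 (SE 0.09, adjusted p = 0.797).

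The middle enzymes turn mevalonate into isopentenyl diphosphate. MVK (chromosome 12, 109573255 to 109598117, plus strand) encodes mevalonate kinase. It had 126, 156, 82.2, 104 and 116 in methionine restriction against 462, 428, 338, 362 and 390.4, and the groups did not overlap. The difference was -1.78 (SE 0.16, adjusted p = 6.75e-07), followed by -1.01 (SE 0.16, adjusted p = 0.000497) in histidine restriction. In tryptophan restriction it was -0.61 (SE 0.16, adjusted p = 0.00653), with overlapping libraries, and with each library scaled to equal totals it became -0.37 (adjusted p = 0.0738). MVK was not called in phenylalanine, 0.15, isoleucine, -0.16, leucine, -0.35, or valine restriction, -0.10. MMAB, a cobalamin enzyme that starts head to head with MVK and overlaps it by 620 bases, was called lower in the same 3 comparisons, with differences of -0.88 in histidine, -1.10 in methionine and -0.55 in tryptophan restriction.

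PMVK (chromosome 1, 154924734 to 154936991, minus strand), phosphomevalonate kinase, moved the other way. Its methionine-restricted libraries had 867, 946, 809, 990.2 and 1069 and the controls 597, 497, 725, 564 and 589. Every restricted value was above every control value, a 1.58-fold rise and a log2 difference of 0.66 (SE 0.11, adjusted p = 0.000133). In histidine restriction it had 961, 869, 966, 899.6 and 907 against 684, 669, 607, 679.7 and 501, again without overlap, 1.47-fold higher, with a difference of 0.56 (SE 0.09, adjusted p = 0.000549). In the other 5 comparisons PMVK was not called, with differences from -0.29 in isoleucine to 0.27 in phenylalanine restriction. Phenylalanine restricted 2 and control 1, the libraries high in ribosomal protein mRNA, were the highest for PMVK in their groups, with 1408 and 1204. Without them the phenylalanine difference was 0.28 (adjusted p = 0.0356) and was called. In tryptophan restriction the difference of 0.01 (adjusted p = 0.919) became 0.26 (adjusted p = 0.0145) with equal totals.

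MVD (chromosome 16, 88651935 to 88663161, minus strand), mevalonate diphosphate decarboxylase, had 412, 371, 434, 445 and 396 under methionine restriction and 2549, 2790.0, 2866, 2746 and 2656 in the controls. The gap between the groups was wide and the difference -2.72 (SE 0.07, adjusted p = 3.33e-12). Histidine restriction gave 845 ± 72.2 (SD, n = 5) against 2793 ± 609.5 (SD, n = 5), a difference of -1.70 (SE 0.13, adjusted p = 1.03e-06). Leucine restriction gave 516, 673, 586, 642 and 711 against 1709.6, 1293, 985 and 1149.8, -1.02 (SE 0.15, adjusted p = 0.00271), with branched-chain control 1 the highest. The phenylalanine, -0.85 (SE 0.17, adjusted p = 0.00842), and tryptophan differences, -0.78 (SE 0.11, adjusted p = 2.81e-05), were called too, without overlap. In valine restriction MVD had 931, 1441, 838, 985 and 1051 against 1845, 1364, 1047 and 1224. These overlap, and the difference of -0.38 (SE 0.19, adjusted p = 0.208) was not called.

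IDI1 and FDPS make the allylic diphosphates. IDI1 (chromosome 10, 1039152 to 1049170, minus strand), isopentenyl diphosphate isomerase, was called in every comparison but isoleucine. It had 706 ± 74.2 (SD, n = 5) against 3177 ± 484 (SD, n = 5) in methionine, -2.16 with adjusted p = 1.9e-09. In histidine restriction it had 1034 ± 142 (SD, n = 5) against 2962 ± 536 (SD, n = 5), -1.51 with adjusted p = 1.61e-06. Differences of -0.81 (SE 0.09, adjusted p = 3.4e-06) in tryptophan, -0.67 (SE 0.15, adjusted p = 0.0118) in phenylalanine and -0.56 (SE 0.10, adjusted p = 0.00832) in leucine restriction followed, and in all of these the libraries separated. In valine restriction IDI1 had 869, 648, 889.9, 826 and 794 against 1139, 972, 1214 and 1067. Those libraries did not overlap either, but the difference of -0.45 (SE 0.13, adjusted p = 0.0403) was near the threshold, and without the libraries high in COL1A2 it was -0.40 (adjusted p = 0.185). The antisense gene IDI2-AS1, which overlaps IDI1 over 5050 bases, was called lower in histidine, -1.18, and methionine restriction, -2.05, at no more than 112 normalised counts in any library of those tables.

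FDPS (chromosome 1, 155308748 to 155320666, plus strand), farnesyl diphosphate synthase, the target of nitrogen-containing bisphosphonates, had 1714, 1594, 1368, 1736 and 1329.7 under methionine restriction and 5678, 5998, 6109.8, 5497 and 6369.7 in the controls. The difference of -1.94 (SE 0.08, adjusted p = 6.74e-10) came with no overlap, as did -1.35 (SE 0.09, adjusted p = 1.67e-07) in histidine and -0.93 (SE 0.06, adjusted p = 1.03e-08) in tryptophan restriction. In leucine restriction FDPS had 1655, 1762, 1418, 1430.5 and 1499 against 3619.6, 2353, 1929.8 and 2207, with branched-chain control 1 far above the others. That difference was -0.67 (SE 0.16, adjusted p = 0.0267), and without that library it was -0.48 (adjusted p = 0.0099). Leaving out leucine restricted 1, 3, 4 or 5 or branched-chain control 3 ended the call, with adjusted p between 0.0515 and 0.0725. In phenylalanine restriction FDPS had 1408, 2409.6, 1397, 1549 and 1628 against 2776, 2152, 1808, 2334 and 2009, which overlap, -0.42 (SE 0.16, adjusted p = 0.127), and without restricted 2 and control 1 the difference was -0.47 (adjusted p = 0.00141). Valine restriction gave -0.43 (SE 0.19, adjusted p = 0.159). The human genome holds processed copies of FDPS, and RUSC1-AS1 overlaps it on the other strand over 3804 bases, so the authors' counting could divide its reads. RUSC1-AS1 was itself called lower in histidine, -1.70, and methionine restriction, -2.14.

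GGPS1 (chromosome 1, 235327350 to 235344532, plus strand), geranylgeranyl diphosphate synthase, feeds the branch that modifies Rab proteins. It had 1439, 1229, 1357, 1332 and 1484 in methionine restriction against 788, 942, 1069.8, 838 and 1031, a 1.47-fold rise. Histidine restriction gave 1366, 1283, 1353, 1436 and 1239 against 921, 882, 1014, 1025 and 1129, a 1.35-fold rise. Neither pair of groups overlapped, and the differences were 0.56 (SE 0.09, adjusted p = 0.000181) and 0.43 (SE 0.08, adjusted p = 0.00123). In valine restriction its libraries had 1798, 1375, 1366, 1377 and 1675 against 1319.7, 1068, 1056 and 1117. All restricted values were above all controls, yet the difference of 0.41 (SE 0.13, adjusted p = 0.0594) missed the threshold. It was called without branched-chain control 1 (0.48, adjusted p = 0.0233), the control library high in ribosomal protein mRNA. In tryptophan restriction GGPS1 had 1153 ± 116 (SD, n = 5) against 1385 ± 145 (SD, n = 5) with overlapping libraries and -0.26 (SE 0.09, adjusted p = 0.0218). That call ended with equal totals (-0.02, adjusted p = 0.854), with equal upper quartiles (-0.06, adjusted p = 0.526), without tryptophan restricted 1 (adjusted p = 0.0554) and without tryptophan control 1 (adjusted p = 0.0531). Most of GGPS1 lies within TBCE on the same strand (15963 bases), and TBCE was called lower in tryptophan restriction, -1.05. ARID4B, which overlaps GGPS1 over 870 bases on the other strand, was called higher in methionine, 0.45 (adjusted p = 0.000414), and lower in tryptophan restriction, -0.41 (adjusted p = 0.00487), the directions of GGPS1 there, and its part was not tested.

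Control levels fell into separate ranges. HMGCS1 was at 4549 to 7432 normalised counts in the 10 histidine and methionine control libraries and at 1134 to 1818 in the control columns of the other 5 tables. ACAT2 was at 2038 to 3232 against 774 to 1689, FDPS at 5285 to 7404 against 1808 to 3939, and IDI1 at 2285 to 3873 against 659 to 1512. MVD, at 1962 to 3539 against 736 to 1845, and MVK, at 241 to 462 against 106 to 215, also did not overlap between those sets of tables. PMVK, at 497 to 725 against 590.1 to 1204, and GGPS1, at 788 to 1129 against 845 to 1596, did overlap. The tables were normalised separately, so these levels are set side by side without a test.

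Restricted means of the same 6 members ran over narrower ranges than their control means. Over all 7 tables the restricted means of HMGCS1 ran from 685 to 1803, a 2.63-fold range, and its control means from 1311 to 6829, a 5.21-fold range. For ACAT2 the corresponding ranges were 2.57-fold and 3.40-fold, for IDI1 1.99-fold and 3.35-fold, for FDPS 1.72-fold and 3.03-fold, for MVK 1.51-fold and 2.72-fold, and for MVD 2.92-fold and 3.01-fold, which are close. For PMVK (1.61-fold and 1.29-fold) and GGPS1 (1.70-fold and 1.48-fold) the order was the other way round. The endoplasmic reticulum chaperone mRNA HSPA5 also differed between controls, at 8575 ± 1547 (SD, n = 5) in histidine, 8653 ± 559 in methionine, 7577 ± 229 in tryptophan, 42264 ± 1738 in phenylalanine and 53069 ± 1694 (n = 4) in the isoleucine table. The heat shock gene HSPA6 was at 14.6 ± 5.19 in the tryptophan controls and at 1013 to 2611 in the mean of each of the other control sets. Neither splits the control groups where the 6 members do, and their part in the members' levels was not tested.

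Differences between responses were tested directly for 21 pairs of amino acids, that is 168 tests over the 8 members, of which 101 were called. The share of all genes called ran from 0.691% (phenylalanine against valine) to 53.6% (methionine against tryptophan), so that total is not a result about the members alone. Between histidine and methionine 6 of 8 responses differed, against 34.4% of all genes. HMGCS1 fell further in methionine by 0.94 (SE 0.19, adjusted p = 0.000528), ACAT2 by 1.19 (SE 0.15, adjusted p = 2.01e-06) and MVD by 1.03 (SE 0.16, adjusted p = 2.39e-05) on the log2 scale. For PMVK the histidine response minus the methionine response was -0.10 (SE 0.14, adjusted p = 0.625) and for GGPS1 -0.13 (SE 0.12, adjusted p = 0.445), and neither was called. All 8 responses differed between methionine and tryptophan (53.6% of genes), methionine and leucine (37.2%) and methionine and isoleucine (37.2%), 7 between methionine and phenylalanine (29.4%) and 6 between methionine and valine (28.3%). Histidine differed in 7 members from phenylalanine (9.66% of genes), tryptophan (43.3%), isoleucine (12.2%) and leucine (16.6%), and in 6 from valine (13.2%). In all these pairs the 2 responses were taken against different control sets. Differences between amino acids and between control sets therefore cannot be told apart. HMGCS1 had restricted means of 685 in methionine, 765 in tryptophan, 809 in leucine and 1803 in isoleucine, with control means of 6829, 1311, 1574 and 1647.

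Among the smaller responses fewer pairs separated. By limma, 0 members differed between phenylalanine and leucine (4.68% of genes, with 1 member at an unadjusted p below 0.05), phenylalanine and valine (0.691%, with 3) or tryptophan and leucine (40.2%, with 0). Phenylalanine differed in 3 members each from tryptophan (32.6%) and isoleucine (5.5%), and tryptophan differed in 5 from isoleucine (33.1%). Tryptophan and valine differed only in GGPS1, -0.67 (SE 0.15, adjusted p = 0.00158), against 35.2% of genes.

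Isoleucine, leucine and valine shared their controls, so for these pairs the mean of the controls was subtracted within each table before restricted libraries were compared, a test that does not carry the controls' own error. Isoleucine differed from leucine in 5 members (14.4% of genes) and from valine in 5 (26.2%). Leucine and valine differed in MVD, -0.64 (SE 0.15, adjusted p = 0.0184), and in GGPS1, -0.49 (SE 0.11, adjusted p = 0.0123), where 19.1% of genes differed. These 2 of 8 members are near that share. Over the 21 pairs the count of called differences was 16 for ACAT2, 15 each for HMGCS1, IDI1 and FDPS, 14 for MVD, 11 for GGPS1, 9 for MVK and 6 for PMVK.

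Downstream, the 13 genes from squalene to cholesterol were mostly called lower as well. In methionine restriction 12 were called lower and 0 higher (median -2.08), against 25.4% of all genes lower, with MSMO1, a sterol C4-methyl oxidase, at -2.85 and CYP51A1, lanosterol demethylase, at -2.77. In histidine restriction 12 were lower (median -1.56), against 12.3% of all genes, with MSMO1 at -2.41. In tryptophan restriction 12 were lower and 1 higher (median -0.78), in leucine 10 lower (-0.77), in phenylalanine 9 lower (-0.63) and in valine 8 lower (-0.82), against 27.7%, 4.33%, 6.09% and 7.36% of all genes lower, where NSDHL, a sterol dehydrogenase, was at -1.51. With equal totals the lower calls were 8 in tryptophan and 6 in phenylalanine restriction. That scaling shifted the median of all genes by 0.24 in tryptophan and 0.12 in phenylalanine restriction. The shares above are for the deposited scaling, and those with equal totals are not given. In isoleucine restriction limma called 0, with 2 of 13 at an unadjusted p below 0.05.

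Of 12 genes for sterol regulation and uptake 11 reached the minimum mean and were tested. INSIG1, which holds SREBP in the endoplasmic reticulum, fell in methionine restriction from 13618 ± 922 to 1644 ± 171 (SD, n = 5 each), a log2 difference of -3.05 (SE 0.08, adjusted p = 3.33e-12), and in histidine restriction, with -1.78. In all, 7 of 11 were lower and 3 higher in methionine, 6 lower in histidine, 5 lower in phenylalanine, 3 lower and 4 higher in tryptophan, 5 lower and 1 higher in leucine and 6 lower in valine restriction. Of all tested genes, 25.4% were called lower in methionine, 12.3% in histidine, 6.09% in phenylalanine, 4.33% in leucine and 7.36% in valine restriction. Called higher were 23.6% in tryptophan and 3.41% in leucine restriction. The 3 of 11 higher in methionine and the 3 of 11 lower in tryptophan restriction are near the 27.8% and 27.7% of all tested genes so called. With equal totals the counts were 1 lower and 5 higher in tryptophan and 5 lower and 2 higher in histidine restriction. Shares of all genes with equal totals are not given. In tryptophan restriction NPC1, the lysosomal cholesterol exporter, was at 0.39. SREBF2, the gene of SREBP-2, was called lower in every comparison but isoleucine, with -2.41 in methionine, -1.53 in valine, -1.48 in phenylalanine, -0.91 in leucine, -0.56 in histidine and -0.26 in tryptophan restriction.

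The 15 genes that use isoprenoids (such as prenyl transferases and enzymes of dolichol and ubiquinone synthesis) gave other counts. In methionine restriction 11 rose and 1 fell (median 0.59), where 27.8% of all tested genes were called higher and 25.4% lower, with ZMPSTE24, the protease that processes farnesylated prelamin A, at 1.04. In tryptophan restriction 13 fell and 0 rose (median -0.43), where 27.7% of all genes were called lower, led by PDSS1, which makes the ubiquinone tail, at -1.46, and PGGT1B, a subunit of the enzyme that attaches geranylgeranyl groups, at -0.96. The count of 13 became 5 with equal totals and 7 with equal upper quartiles, scalings that raised the median of all tested genes in that table to 0.27 and 0.23. In histidine restriction 2 fell and 3 rose, in phenylalanine 3 fell, in leucine 2 fell and in valine 1, ICMT, rose. The histidine counts are near the 12.3% of all genes called lower and 15.6% called higher there. The 1 of 15 in valine restriction is near the 5.13% of all genes called higher. In leucine restriction 4.33% of all genes were called lower. With equal totals 1 fell and 1 rose in phenylalanine and 4 rose in valine restriction, where the shares of all genes in the deposited scaling were 6.09% lower, 4.11% higher and 5.13% higher. Isoleucine restriction gave 0 calls by limma and 1 of 15 at an unadjusted p below 0.05.

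With group means removed, some pairs of members varied together over the 59 libraries. HMGCS1 and IDI1 varied together (r = 0.60), as did MVD and FDPS (r = 0.70), PMVK and MVD (r = 0.67), IDI1 and GGPS1 (r = 0.65) and PMVK and FDPS (r = 0.64). Without the 3 libraries high in ribosomal protein mRNA these became 0.67, 0.55, 0.47, 0.64 and 0.39 over 56 libraries. ACAT2 was positively related to all 7 other members, from 0.31 with MVK to 0.56 with FDPS. Without the 3 libraries its range was 0.18 with MVD to 0.46 with HMGCS1. The median of ribosomal protein mRNA itself ran with FDPS (r = 0.82, and 0.69 without the 3 libraries), PMVK (0.76 and 0.52), ACAT2 (0.58 and 0.50), MVD (0.55 and 0.23) and GGPS1 (0.53 and 0.35), less with IDI1 (0.27 and 0.23) and MVK (0.24 and 0.19), and was at -0.19 and -0.08 with HMGCS1. These are descriptions over libraries that share their table's scaling. HMGCS1 was negatively related to PMVK (-0.36 and -0.32).

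**Figure D4:**
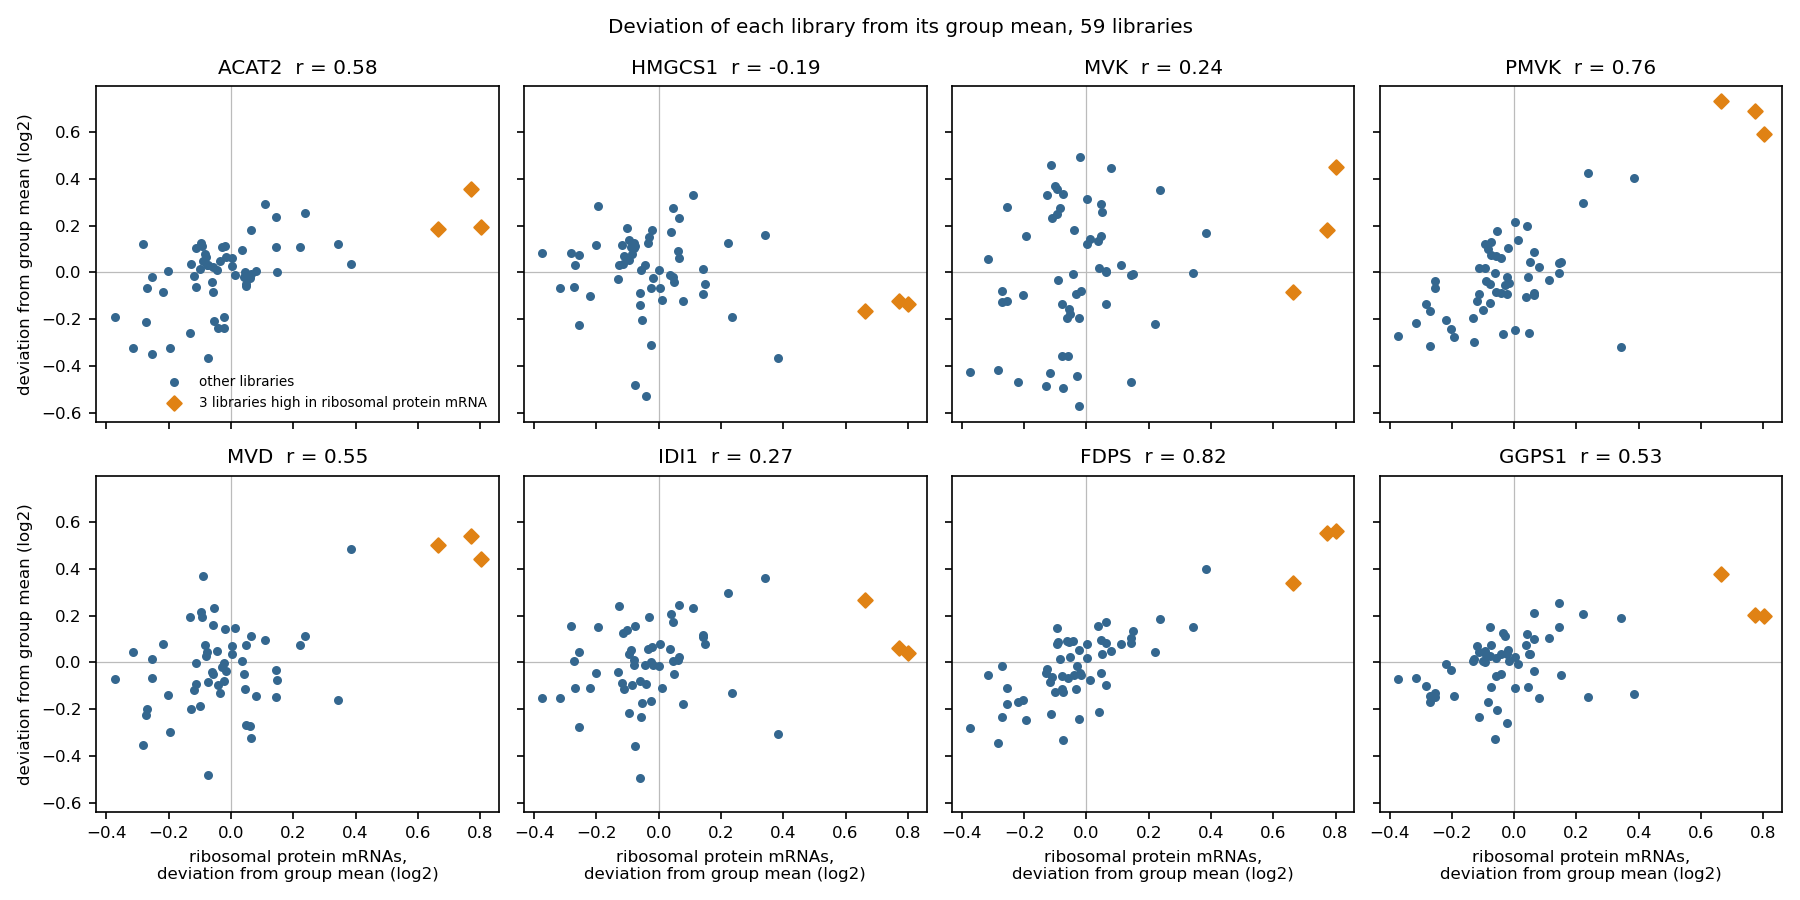
Deviation of each library from its group mean (log2) for each of the 8 mRNAs against the deviation of the median of 77 ribosomal protein mRNAs, 1 point per library (59), with diamonds for the 3 libraries high in that mRNA. FDPS and PMVK rise with it (r = 0.82 and 0.76), and HMGCS1 does not (r = -0.19).

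Within-table correlations of log2(normalised count + 1) were averaged over the 7 tables for 15513 genes tested in all of them. The non-member genes most like HMGCS1 that are named here were SCD, stearoyl-CoA desaturase (mean r = 0.94), FADS1, a fatty acid desaturase (0.91), STARD4, a sterol carrier (0.90), and MSMO1 (0.89). Among the members IDI1 was at 0.85 and ACAT2 at 0.81, MVD and FDPS each at 0.56, MVK at 0.36, GGPS1 at -0.17 and PMVK at -0.48. In single tables r ran from 0.29 to 0.99 for IDI1 and from 0.19 to 0.998 for ACAT2. For the others its sign changed between tables: -0.65 to 0.996 for MVD, -0.42 to 0.99 for FDPS, -0.40 to 0.96 for MVK, -0.88 to 0.90 for GGPS1 and -0.92 to 0.30 for PMVK. Most like GGPS1 were TMEM126A (0.81), CDC26 (0.79), MRPS30 (0.77), NOL7 (0.76) and COA6 (0.75), with PMVK at 0.44 (-0.23 to 0.87 in single tables) the nearest member. These values hold the restricted-to-control difference, and the branched-chain control libraries enter 3 of the tables.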

How the data were processed

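For each amino acid the authors deposited normalised counts, which are a non-negative signal per gene and library. Per the submitters' processing notes FastQC 0.11.9, kallisto 0.50.1, DESeq2 1.44.0 and GRCh38 were used, while the sources used here do not give settings, annotation release or strand setting. Strand-specific libraries were made from 1 µg of total RNA, per the labels' protocols. A control library has gene-dependent ratios between the branched-chain tables (percentiles 1 to 99 for library 1, isoleucine over valine, 0.885 to 1.04), so whole reads were not recovered, tables were not rescaled jointly and tests stayed within tables, apart from differences of responses. Genes with a mean of at least 10 were tested with limma 3.58.1 (R 4.3.3) after log2(normalised count + 1) transformation (lmFit, eBayes with trend, two-sided, and without trend for pairs that share controls), adjusted by Benjamini-Hochberg, called below 0.05, and read with data.table (version 1.17.8). Fold changes are on that scale. The fits were tested on simulated data. The members and lists were chosen with earlier results of these data known. Named are all members, the 2 called genes of each list with the largest difference (some left out for length), paralogues, overlapping neighbours, HSPA5 and HSPA6, and the 5 genes most like HMGCS1 and GGPS1. Some genes these rules allow are not reported here. Alternatives were other pseudocounts, filters and scalings, the replicate block, each library left out and, added after seeing the data, omission of the libraries high in COL1A2 or ribosomal protein mRNA.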

Additional observations from a re-analysis of the deposited data

Results flagged for a closer look

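Of 96 groups of 4 or 5 libraries, 9 held a library far from the rest by Dixon's criterion, where chance gives about 1 in 20. In the histidine controls, library 1 was low for ACAT2 (2038, others 2718 to 2853) and HMGCS1 (4549, others 6712 to 7106), and in the methionine controls library 4 was low for ACAT2 (2349.6, others 3049 to 3232). The other 6 lie in the libraries high in ribosomal protein mRNA. Phenylalanine restricted 2 was high for PMVK (1408, others 700.0 to 818), MVD (969, others 571 to 665) and FDPS (2409.6, others 1397 to 1628). Phenylalanine control 1 was high for PMVK (1204, others 590.1 to 722) and MVD (1699, others 1045 to 1169), and branched-chain control 1 was high for PMVK (1096, others 614 to 661). The part of ribosomal protein mRNA in these values was not tested.

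Responses differed between amino acids, by the test of the difference, in 16 of 21 pairs for ACAT2, 15 for HMGCS1, 9 for MVK, 6 for PMVK, 14 for MVD, 15 for IDI1, 15 for FDPS and 11 for GGPS1. Pairs that share an amino acid or controls are not independent of each other.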

How the results depend on the processing

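All 31 lower and 4 higher calls kept their direction under every alternative run. Pseudocounts of 0.25 and 5 changed no call. The count of members called higher moved from 0 to 1 in tryptophan restriction with equal totals and with equal upper quartiles (PMVK), in phenylalanine restriction without the libraries high in ribosomal protein mRNA (PMVK), and in valine restriction with a minimum mean of 100, equal totals, equal upper quartiles, the replicate block and without the library high in ribosomal protein mRNA (GGPS1, adjusted p between 0.00878 and 0.0455). Equal totals shifted the median of all genes by 0.24 in tryptophan, 0.13 in methionine, 0.12 in phenylalanine and 0.11 in valine restriction. The IDI1 call in valine restriction ended with no filter (adjusted p = 0.0635), with equal totals, without the libraries high in COL1A2 (0.185), and in 7 of 9 fits that left out 1 library (0.0506 to 0.103), among them that without branched-chain control 1, the library high in ribosomal protein mRNA.

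Uncalled differences near 0 changed sign. In isoleucine restriction ACAT2 was at 0.042 with equal totals, 0.0040 with equal upper quartiles, 0.063 without the library high in ribosomal protein mRNA and 0.040 without that high in COL1A2, MVD at 0.012 in the former and FDPS at -0.064 in the latter. In valine restriction MVK was at 0.014 with equal totals and 0.056 without branched-chain control 1. The causes were not tested. Leaving out 1 library at a time gave -0.024 to 0.055 for PMVK in tryptophan, -0.11 to 0.063 for ACAT2, -0.25 to 0.012 for MVD and -0.064 to 0.24 for FDPS in isoleucine and -0.24 to 0.056 for MVK in valine restriction. Members called lower ranged over 4 to 5 in phenylalanine, 6 to 7 in tryptophan, 4 to 5 in leucine and 2 to 3 in valine restriction, members called higher over 0 to 1 in valine restriction, and called response differences over 97 to 107 (96 to 111 over the other alternatives, 101 as reported).

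Replicate numbers are shared between groups, but only 3 of 32 same-numbered pairs correlated above 0.1 (-0.19 to 0.19) and 7 correlated best with their own number, so the block pairs libraries only by number. With the replicate block the tryptophan GGPS1 call was lost (adjusted p = 0.0628), valine FDPS (-0.53, adjusted p = 0.0206) and GGPS1 (0.44, adjusted p = 0.0158) were called, 99 response differences were called, and no other call of a member changed. Depth is unknown, so its limit on MVK, at under 500 normalised counts, cannot be given.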
